A study of Mus musculus with 6 samples.

Results

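The naive pluripotency transcription factors are 10 genes chosen by symbol, *Nanog*, *Esrrb*, *Tfcp2l1*, *Zfp42*, *Klf2*, *Klf4*, *Klf5*, *Tbx3*, *Prdm14* and *Nr0b1*, out of 16279 genes listed for either of the cell types compared. All 10 are listed in both count tables and all 10 passed the filter on low counts. Bulk RNA-seq was made from F1 mESCs, which are mouse embryonic stem cells, and from CPCCs, the cardiac precursor cell cultures grown from them, with 3 libraries of each. All cells were male F1 hybrids, labelled C57BL/6 x CAST/EiJ, of C57BL/6J mothers and CAST/EiJ fathers. The mESCs were single-cell clones, 1 from each of 3 blastocyst lines, kept in serum with LIF and with inhibitors of MEK (PD0325901) and GSK3 (CHIR99021). The CPCCs came from the same 3 clones, which were aggregated in hanging drops, grown as embryoid bodies with ascorbic acid and then passaged with EGF and Fgf2, without LIF or the inhibitors. They are mixed cultures, and the medium differs between the cell types along with the lineage, so these cannot be told apart. The columns carry no replicate numbers, and the libraries are named S01, S02 and S03 (mESC) and S04, S05 and S06 (CPCC) as in the tables.

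Naive pluripotency is the state of the epiblast before implantation, and mESCs hold it in culture through a small network of transcription factors. *Nanog*, *Esrrb* and *Tfcp2l1* sustain self-renewal, the Krüppel-like factors *Klf2*, *Klf4* and *Klf5* bind many of the same genes and can stand in for one another, and *Tbx3* carries PI3K signals into the network. LIF acts through STAT3 on *Klf4* and *Tfcp2l1*, GSK3 inhibition relieves the repression that TCF7L1 exerts on *Esrrb* and other genes, and MEK inhibition blocks the FGF signal that drives cells out of this state. *Prdm14* represses DNA methyltransferase genes and FGF signalling, *Nr0b1* encodes the orphan nuclear receptor DAX1, and *Zfp42* encodes REX1, a widely used reporter of the naive state.

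Library totals were 6442639 to 6907330 counts in mESCs and 8468819 to 11436062 counts in CPCCs. Levels are given as CPM, the count of a gene over the TMM-normalized library size, times 1000000, so that a floor of 3 counts equals 0.298 to 0.463 CPM in a library. Of the 12471 genes tested, edgeR's quasi-likelihood test called 61.4% different between the cell types at a Benjamini-Hochberg adjusted p under 0.05, 29.7% lower and 31.7% higher in CPCCs. With so many genes changed, a call by itself says little about a gene, and the sizes are given beside it. Of 10 cardiac progenitor markers, 9 were listed in at least 1 table. Their summed level was 4.41 to 6.64 CPM in mESCs and 143, 42.0 and 54.3 CPM in S04, S05 and S06. *Tnnt2*, a troponin of cardiac muscle, gave most of it, with 103, 24.0 and 28.3 CPM, while *Nkx2-5* had 1.59, 0 and 0.917 CPM and *Mesp1* was in neither table. The 10 markers of mesenchyme and smooth muscle summed to 12.7 to 20.04 CPM in mESCs and to 17819, 17361 and 11583 CPM in the CPCC libraries.

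The start regions of 7 of the 10 members are in the RefSeq promoter table (GRCm38.p6, the build of the count tables), as 9 windows that run from 250 bases before a start to 50 bases after it. Those of *Nanog*, *Zfp42*, *Tfcp2l1* and *Klf4* are printed 5′ to 3′ on the gene's strand, the first 2 because they hold the letters of the POU octamer, *Tfcp2l1* because it fell most and *Klf4* because it fell least. Capitals mark the POU letters and the SOX letters in *Nanog*, the POU letters in *Zfp42*, the TATA letters in *Tfcp2l1* and the GC boxes in *Klf4*. The windows lie at chr6:122707239-122707538 (plus strand), chr8:43306960-43307259 (minus strand), chr1:118627695-118627994 (plus strand) and chr4:55532426-55532725 (minus strand).
Nanog: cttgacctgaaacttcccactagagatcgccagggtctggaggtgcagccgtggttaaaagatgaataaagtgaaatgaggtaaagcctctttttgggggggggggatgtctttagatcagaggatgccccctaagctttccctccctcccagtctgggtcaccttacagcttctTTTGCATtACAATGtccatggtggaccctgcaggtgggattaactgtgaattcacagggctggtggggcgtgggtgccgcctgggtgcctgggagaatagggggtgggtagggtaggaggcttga
Zfp42: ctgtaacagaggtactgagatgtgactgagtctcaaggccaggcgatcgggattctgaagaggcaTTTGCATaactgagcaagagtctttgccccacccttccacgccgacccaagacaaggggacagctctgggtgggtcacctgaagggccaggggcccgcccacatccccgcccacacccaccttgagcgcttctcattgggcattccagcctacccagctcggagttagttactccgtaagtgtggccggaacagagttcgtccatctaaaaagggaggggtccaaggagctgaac
Tfcp2l1: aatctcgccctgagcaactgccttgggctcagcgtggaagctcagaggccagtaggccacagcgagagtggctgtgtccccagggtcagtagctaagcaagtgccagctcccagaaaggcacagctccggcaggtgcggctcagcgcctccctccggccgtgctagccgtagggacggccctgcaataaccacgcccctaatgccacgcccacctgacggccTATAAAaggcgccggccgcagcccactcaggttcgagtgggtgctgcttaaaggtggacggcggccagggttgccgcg
Klf4: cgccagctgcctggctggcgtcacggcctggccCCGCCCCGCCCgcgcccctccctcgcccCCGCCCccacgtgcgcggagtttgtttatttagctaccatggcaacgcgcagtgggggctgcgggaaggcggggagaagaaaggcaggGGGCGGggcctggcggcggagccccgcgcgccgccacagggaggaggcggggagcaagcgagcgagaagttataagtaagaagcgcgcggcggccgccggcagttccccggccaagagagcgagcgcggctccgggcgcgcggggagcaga

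In *Nanog* the letters TTTGCAT and ACAATG stand 1 base apart, which is the arrangement that OCT4 and SOX2 are known to bind together. They lie 75 and 67 bases upstream of the start in the printed window, and 151 and 143 bases upstream of the other listed start. Searched on both strands, ATGCAAA (POU octamer) was in 4.63% of all 32851 windows and ACAATG (SOX) in 12.6%, while both side by side with at most 1 base between them were in 3 windows, of which 2 are the overlapping windows of *Nanog*. Among the members, *Esrrb* also held the SOX letters. *Zfp42* held the POU letters 185 bases upstream of its start, without the SOX letters beside them. GGGTGTG (KLF) was found in *Esrrb* and *Zfp42* and in 7.95% of all windows, and TTCNNNGAA (STAT) in *Esrrb* and in 8.30% of all windows. AAGGTCA (ESRRB and NR5A) and CTTTGAT (TCF) were not in the member windows. TATAAA was in *Nr0b1* and *Tfcp2l1* (13.6% of all windows) and GGGCGG, the GC box, in *Klf2*, *Klf4* and *Zfp42* (35.7% of all windows). In *Zfp42* a GC box shares its outermost base with the KLF letters, and in *Klf4* 2 of the 4 GC boxes share 1 base. The *Klf4* and *Klf2* windows were also the richest in G and C among the members, at 74.3% and 69.3% with 40 and 32 CpG, against 54.3% and 4 CpG in the printed *Nanog* window and a median of 52.7% and 7.0 over all windows. These are letters in a window, and whether a factor was bound there was not measured.

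All 10 members were lower in CPCCs than in mESCs, by 7.66-fold (*Klf4*) to 164-fold (*Tfcp2l1*), with adjusted p between 1.83e-06 and 6.06e-05 from edgeR's quasi-likelihood test. For each of them the 3 CPCC libraries lay below the 3 mESC libraries, as was also the case for 34.5% of all genes tested. The median log2 fold change (CPCC over mESC) of the members was -5.36, while that of all genes tested was 0.03. The fall was more than 16-fold for 7 of the 10 members, where 1.39% of all genes tested had a log2 fold change of -4 or less. Together the members took 0.426% to 0.441% of all counts of an mESC library, and 0.0113%, 0.0148% and 0.0187% in S04, S05 and S06. In bulk samples, fewer cells that hold a transcript and less of it in each cell cannot be told apart. For any 1 gene, an exact permutation test over the 6 libraries cannot go below a two-sided p of 0.10, which every member reached.

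**Figure D1:**
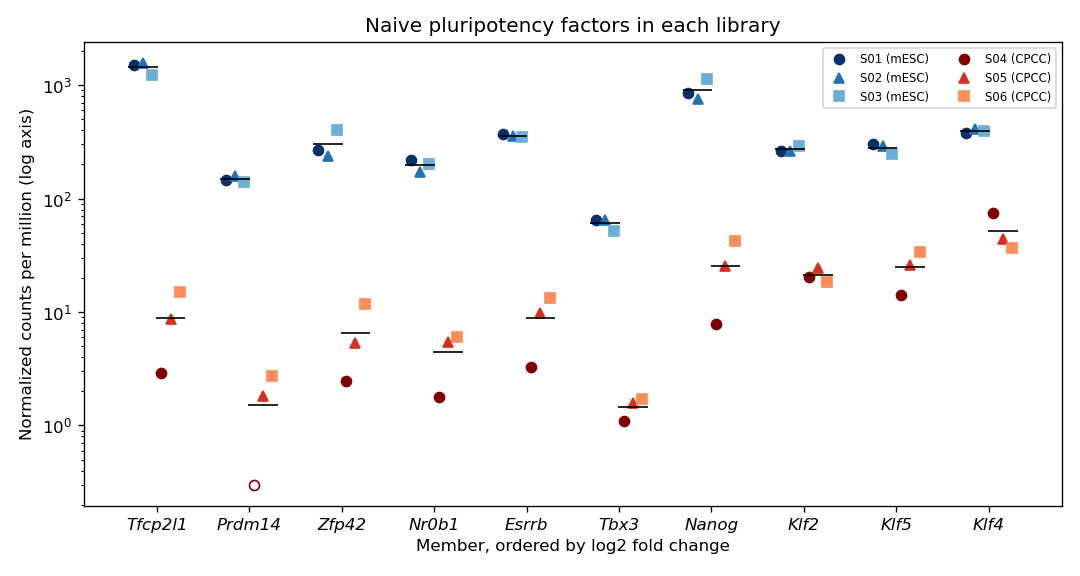
Normalized CPM (log axis) of each member in the 3 mESC libraries (blue) and the 3 CPCC libraries (red), with black bars at the group means; the open circle sets *Prdm14* in S04, which had 0 counts, at the floor of 0.298 CPM. In every gene the blue points lie above the red ones, and the gap is narrowest in *Klf4*.

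Among the self-renewal factors, *Nanog*, the homeobox gene after which the network is often named (chromosome 6, 122707489 to 122714634), reached 854 (S01), 749.9 (S02) and 1132 CPM (S03) in mESCs, against 7.85 (S04), 25.6 (S05) and 42.5 CPM (S06) in CPCCs. The mESC library S03 stood above the other two and S04 was the lowest of all 6. The fold change (log2FC, CPCC over mESC) was -5.17 ± 0.55 (SE; adjusted p = 6.06e-05, edgeR), the highest adjusted p of the 10. Counts of *Nanog* were not whole numbers in mESCs, and GENCODE lists 2 processed pseudogenes of it that neither table holds, so its counts are uncertain to the extent that reads are shared with these copies. The mESC counts of *Esrrb* and *Klf2* were also not all whole, and *Zfp42* has 1 such pseudogene, also in neither table. *Esrrb*, an orphan nuclear receptor that binds beside the core factors (chromosome 12, 86361117 to 86521629), was almost level across the mESC libraries, with 370.4, 357.6 and 350.1 CPM, a coefficient of variation of 2.86%, the lowest of the members. It had 3.28, 9.82 and 13.2 CPM in CPCCs, with the same order of libraries as *Nanog* and log2FC at -5.37 ± 0.44 (SE; adjusted p = 1.46e-05, edgeR).

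*Tfcp2l1*, a grainyhead-like factor downstream of LIF and STAT3 (chromosome 1, 118627945 to 118685169), had the largest fall of the members. It had 1506, 1551 and 1235 CPM in mESCs and only 2.88, 8.61 and 14.9 CPM in CPCCs. Its log2FC was -7.35 ± 0.54 (SE; adjusted p = 8.46e-06, edgeR), and only 3 of the 12471 genes tested fell further. *Prdm14*, the PR-domain factor that keeps DNA methylation low (chromosome 1, 13113428 to 13127164), had 144, 159.6 and 139 CPM in mESCs and came next, with log2FC at -6.63 ± 0.66 (SE; adjusted p = 4.19e-05, edgeR). In CPCCs it had 0, 15 and 24 counts, or 0, 1.82 and 2.75 CPM, and the 0 of S04 allows a level of up to 0.298 CPM by counting error alone.

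*Zfp42*, the gene of REX1 (chromosome 8, 43295067 to 43307010), had 267, 239 and 406 CPM in mESCs, the widest spread of the members there, with a coefficient of variation of 29.4%. As in *Nanog*, S03 was the highest mESC library and S02 the lowest. In CPCCs it had 2.49, 5.34 and 11.8 CPM, with log2FC at -5.55 ± 0.52 (SE; adjusted p = 2.97e-05, edgeR). *Nr0b1*, a nuclear receptor without a classical DNA-binding domain that partners OCT4 and ESRRB (chromosome X, 86191775 to 86195947), had 218, 172 and 203 CPM in mESCs, against 1.79, 5.46 and 6.07 CPM in CPCCs, with log2FC at -5.49 ± 0.40 (SE; adjusted p = 7.96e-06, edgeR). *Tbx3*, a T-box gene also known from limb and heart development (chromosome 5, 119670862 to 119684725), had 64.6, 64.7 and 51.8 CPM in mESCs. In CPCCs it had 11, 13 and 15 counts, or 1.09, 1.58 and 1.72 CPM, and log2FC at -5.36 ± 0.28 (SE; adjusted p = 1.88e-06, edgeR). An antisense gene, *Tbx3os1*, overlaps its exons, and the sources used here do not say whether counting used the strand.

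The 3 Krüppel-like factors fell least. *Klf2*, which MEK inhibition protects from degradation at the protein level (chromosome 8, 72319062 to 72321655), had 259.8, 261 and 292 CPM in mESCs, against 20.3, 24.5 and 18.3 CPM in CPCCs, with log2FC at -3.69 ± 0.19 (SE; adjusted p = 1.83e-06, edgeR). *Klf5*, which is also active in epithelia (chromosome 14, 99298691 to 99313410), had 305, 292 and 247 CPM in mESCs, against 14.2, 26.2 and 33.6 CPM in CPCCs, with log2FC at -3.51 ± 0.30 (SE; adjusted p = 2.05e-05, edgeR). *Klf4*, a direct STAT3 target in mESCs that is also expressed in mesenchymal and epithelial cells (chromosome 4, 55527137 to 55532476), had 381, 413 and 396 CPM in mESCs, against 74.3, 44.1 and 36.7 CPM in CPCCs, with log2FC at -2.94 ± 0.27 (SE; adjusted p = 2.56e-05, edgeR). The 95% interval of *Klf4* reached from -3.54 to -2.34 and met none of the intervals of the 7 members outside the KLF family, the nearest being that of *Nanog*, from -6.41 to -3.94. The intervals of *Klf2* (-4.11 to -3.27) and *Klf5* (-4.20 to -2.82) did meet that of *Nanog*. In the order of fold changes, the interval of each member met that of the next.

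**Figure D2:**
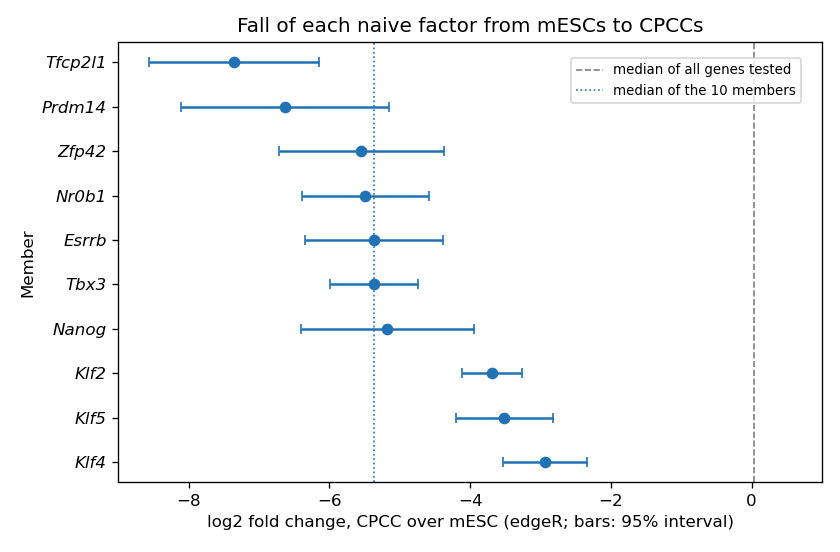
The log2 fold change of each member (CPCC over mESC, edgeR, 3 libraries a group) with its 95% interval; the dotted line is the median of the 10 members at -5.36 and the dashed line that of all genes tested at 0.03. *Tfcp2l1* lies farthest left at -7.35 and the KLF genes lie farthest right, from -3.69 to -2.94.

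Levels can be compared between genes only per length, here as CPM per kilobase of the exons that GENCODE M21 gives for a gene. On this scale *Nanog* led in mESCs with 407 ± 88.0 CPM per kilobase (SD, n = 3), *Zfp42* had 162 ± 47.6, *Tfcp2l1* 152 ± 18.1, *Klf2* 147 ± 9.93, *Klf4* 130.0 ± 5.22 and *Nr0b1* 109 ± 12.9. *Esrrb*, *Prdm14* and *Klf5* were close together at 59.4 ± 1.70, 57.6 ± 4.17 and 54.1 ± 5.85 CPM per kilobase, and *Tbx3* was lowest at 9.11 ± 1.12. The SD ranges of neighbours met among *Zfp42*, *Tfcp2l1* and *Klf2* and among *Esrrb*, *Prdm14* and *Klf5*. The position listed for *Klf5* in the count tables ends at 99313410, but GENCODE ends the gene at 99315036. Its length may therefore include bases that were not counted, and its level per kilobase and its place in both orders are uncertain. In CPCCs the order of levels was another. *Klf4* came first with 17.0 ± 6.53 CPM per kilobase, followed by *Klf2* with 11.4 ± 1.70, *Nanog* with 11.3 ± 7.73 and *Klf5* with 4.74 ± 1.88, while *Tfcp2l1* dropped to 0.932 ± 0.637. There the SD ranges of all neighbours met, while 6 of the 9 pairs of neighbours, *Klf4* over *Klf2* and *Nanog* over *Klf5* among them, had the same order in all 3 libraries.

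The members were also compared as the level that was left in each CPCC library, in percent of the mean mESC level of the gene. The 7 members outside the KLF family had 0% to 1.81% left in S04, 0.602% to 2.81% in S05 and 1.04% to 4.66% in S06. *Nanog*, *Esrrb* and *Nr0b1* had similar shares in S04, at 0.861%, 0.913% and 0.906%, and again in S05, at 2.81%, 2.73% and 2.76%. In S06 they spread to 4.66%, 3.67% and 3.07%. Their S04 values rest on only 79, 33 and 18 counts. *Zfp42* was also near them in S04 (0.817%), as was *Tbx3* in S05 (2.61%). The KLF genes had 5.05% to 18.7% left in S04, 9.03% to 11.1% in S05 and 6.76% to 11.9% in S06, so that in each CPCC library every KLF member kept more of its mESC level than every other member did.

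**Figure D3:**
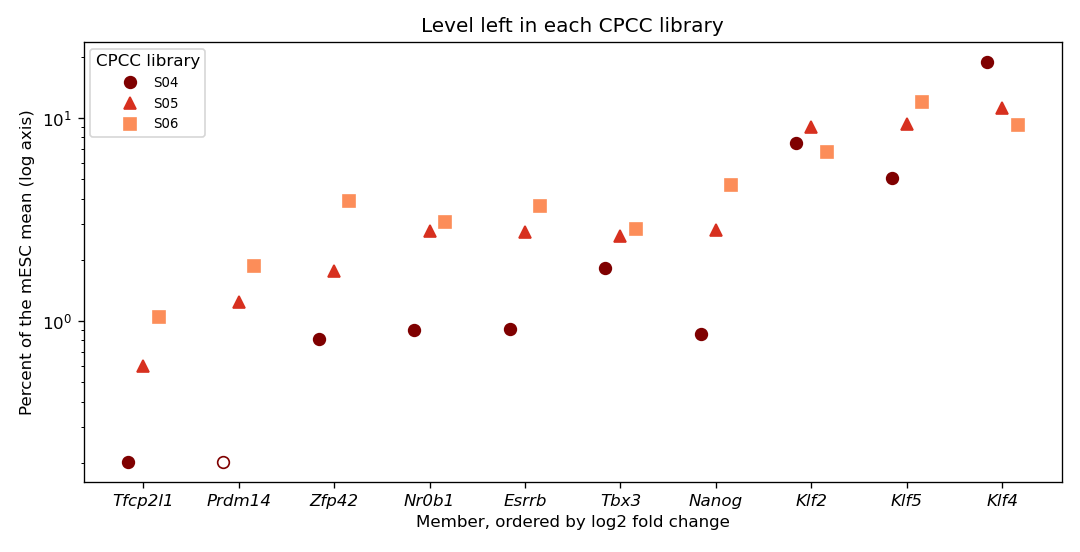
Level of each member in S04, S05 and S06 of the CPCCs as a percent of its mean in the 3 mESC libraries (log axis); the open circle puts *Prdm14* in S04 at the floor of 3 counts. The KLF genes on the right lie at 5.05% or above, the other 7 members at 4.66% or below.

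The CPCC libraries were not alike. In 8 of the 10 members S04 was lowest, S05 next and S06 highest, an order that 41.2% of the 3701 genes lower in CPCCs had. *Nanog* was 5.41-fold higher in S06 than in S04, *Tfcp2l1* 5.17-fold and *Zfp42* 4.75-fold. The exceptions were *Klf4*, which ran the other way and was 2.02-fold higher in S04 than in S06, and *Klf2*, which differed by 1.34-fold between its extremes. The coefficient of variation of the members had a median of 54.8% in CPCCs and 11.3% in mESCs, against medians of 22.3% and 16.4% over all genes tested. Marker sums also differed between these libraries. The cardiac progenitor sum was highest in S04 and the mesenchyme and smooth muscle sum lowest in S06 (values above). A sum of 7 listed markers of 2-cell-like cells was 3.02, 10.1 and 29.9 CPM in S04, S05 and S06, against 10.6 to 12.5 CPM in mESCs. None of the 5 such markers tested passed the threshold. The sum of 7 primordial germ cell markers, which include *Dppa3* and *Prdm1*, was 10.04, 18.6 and 28.7 CPM against 388 to 493 CPM in mESCs. The primitive endoderm sum was 2438, 1851 and 1583 CPM in S04, S05 and S06, against 98.7 to 109 CPM in mESCs. In the same order, trophoblast markers summed to 616, 507 and 788 CPM (84.7 to 92.2 CPM in mESCs). Epithelium markers, of which *Krt8* and *Krt18* are also trophoblast markers, summed to 685, 654 and 1186 CPM (477 to 714 CPM in mESCs). The part of these cell types in the members' levels was not tested, and single libraries cannot be compared by a test. Without S04 the fall of *Nanog* was -4.73 on the log2 scale and that of *Zfp42* -5.12. Without S06 the falls were larger, at -5.78 for *Nanog*, -6.29 for *Zfp42*, -7.98 for *Tfcp2l1* and -7.42 for *Prdm14*. *Prdm14* was at -5.98 without S04, and all of these values were still past the threshold.

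The falls of the KLF members were set beside the rest of their family. Of 11 other KLF genes tested, 5 were lower and 4 higher in CPCCs and 2 did not pass the threshold, with a median log2 fold change of -0.22. The shares over all genes tested were 29.7% lower and 31.7% higher. *Klf8*, which is not counted among the naive factors, fell from 159 to 9.11 CPM, log2FC -4.12 ± 0.28 (SE), and *Klf15* from 24.2 to 3.85 CPM (log2FC -2.66). *Klf6*, an immediate early factor of many adherent cells, rose from 26.5 to 293 CPM (log2FC 3.46 ± 0.32, SE), and *Klf7* and *Klf12* rose by 4.45 and 3.52 on the log2 scale from mean levels of 0.747 and 0.788 CPM. Per kilobase, *Klf2*, *Klf4* and *Klf5* made up 70.1%, 70.5% and 72.6% of the summed level of the 15 KLF genes listed in S01, S02 and S03. In S04, S05 and S06 they made up 20.7%, 20.5% and 19.7%, a share that hardly differed between the CPCC libraries although *Klf4* and *Klf5* ran in opposite directions among them. The summed level of the family was 462 to 472 CPM per kilobase in mESCs and 144 to 184 in CPCCs. These shares and sums carry the uncertain length of *Klf5* given above.

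**Figure D4:**
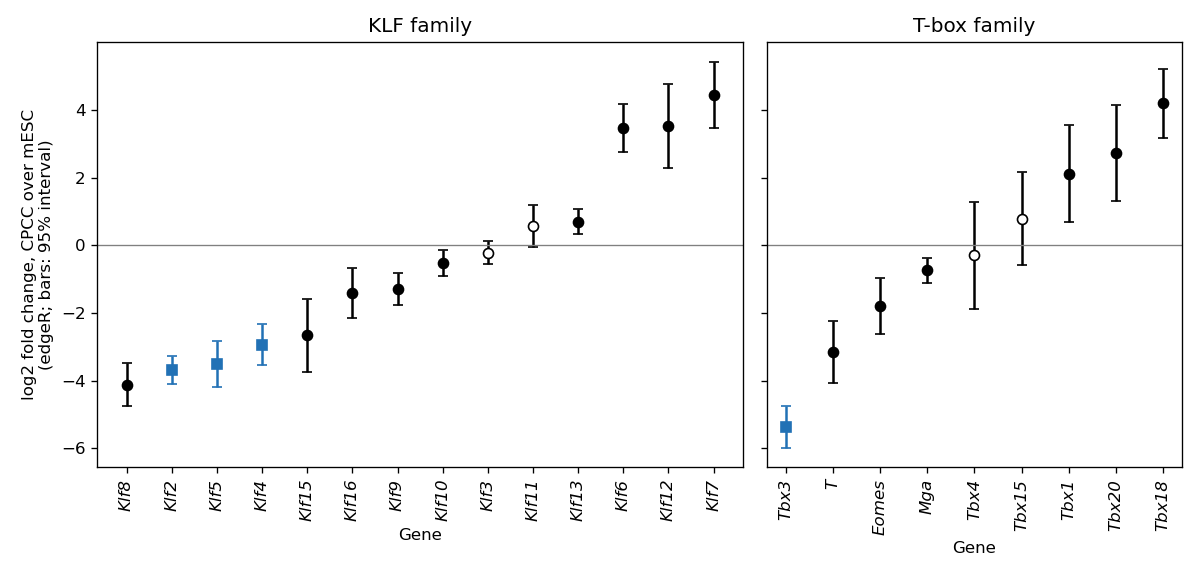
The log2 fold change (CPCC over mESC, edgeR) with its 95% interval for the KLF genes (left) and T-box genes (right) that were tested; blue squares are members, black points other genes, and open points did not pass the threshold. Members lie at the lower end with *Klf8* and *T*, while *Klf6*, *Klf7*, *Klf12*, *Tbx1*, *Tbx18* and *Tbx20* lie above 2.

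The T-box genes were compared in the same manner. *Tbx3* took 13.4% to 16.9% of the summed level per kilobase of 11 T-box genes in the mESC libraries, and 0.533% to 0.966% of it in the CPCC libraries. In mESCs *T* (brachyury), the factor of nascent mesoderm, was higher than *Tbx3* on that scale, at 34.7, 29.2 and 27.2 CPM per kilobase, as was *Mga*, a repressor of germline genes, at 12.0 to 15.8. *Tbx20* and *Tbx18*, which act in the developing heart and epicardium, rose from 6.15 to 40.5 CPM and from 1.15 to 21.2 CPM, with log2 fold changes of 2.72 ± 0.63 (SE) and 4.19 ± 0.45 (SE). *Tbx20* had 76.4, 27.3 and 17.9 CPM in S04, S05 and S06, the reverse of the order of *Tbx3*. *Tbx2*, the nearest relative of *Tbx3*, was listed only for CPCCs, at 11.8 CPM, which makes it at least 26.4-fold higher in those cultures. *Tbx5* was listed only for mESCs, at 0.555 CPM. Over all 22 tested relatives of the other members, T-box genes other than *T* included, 6 were lower and 5 higher in CPCCs and 11 did not pass. Over all genes tested, 29.7% were lower and 31.7% higher. The median log2 fold change of the 22 was -0.28. The number of these relatives that were higher was 2 without S01 and 3 without S05. *Grhl3*, a relative of *Tfcp2l1*, and *Prdm1*, the germline and lineage factor BLIMP1, were among the lower ones, at -3.16 and -2.83 on the log2 scale, and *Tfcp2* itself was higher by 0.79. *Esrra*, *Yy1* and *Prdm15*, relatives of *Esrrb*, *Zfp42* and *Prdm14*, did not pass the threshold (log2 fold changes 0.34, -0.09 and -0.02).

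Target and marker genes of the naive state, core and ancillary factors, and formative and primed genes were also counted. Whether the members act on any of them was not tested. For all 3 lists, the shares over all genes tested were 29.7% lower and 31.7% higher in CPCCs. All 12 target and marker genes of the naive state were lower in CPCCs, with a median log2 fold change of -3.98. They were led by *Tdh*, the threonine dehydrogenase of mESCs (-6.29), *Fbxo15* (-6.00) and *Dppa3* (-4.91), while *Tet2*, which oxidizes 5-methylcytosine, and *Utf1* fell by 1.93 and 1.55 on the log2 scale. Of 10 core and ancillary factors, 7 were lower in CPCCs, with a median of -3.23. In that list *Tcl1* (-6.80), *Nr5a2* (-4.55) and *Sall4* (-3.47) fell most, and the core factors *Pou5f1* and *Sox2* fell by 3.11 and 2.34. Among 9 tested genes of the formative and primed states, which follow the naive state in the embryo, 3 were lower (*T*, *Zic2* and *Dnmt3b*), 2 were higher (*Fgf5* and *Dnmt3a*) and 4 did not pass, with a median of -0.38. *Fgf5*, the classical marker of the primed epiblast, was at 3.08, 8.37 and 14.7 CPM in S04, S05 and S06, in the order of most members, against 0.588 to 1.08 CPM in mESCs (log2FC 3.25 ± 0.67, SE). *Dnmt3b*, which PRDM14 represses, was at 127 to 137 CPM in mESCs and at 25.1, 38.8 and 81.6 CPM in CPCCs.

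Of 15 tested genes of the LIF, WNT and FGF inputs to the network, 6 were lower, 8 higher and *Ctnnb1* did not pass, with a median log2 fold change of 0.61. Among all genes tested, 29.7% were lower and 31.7% higher. Targets of ERK signalling, which the mESC medium blocks, went in both directions. *Dusp6*, the phosphatase that ERK induces against itself, had 2.32, 0 and 0.146 CPM in mESCs, as opposed to 131, 81.0 and 88.0 CPM in CPCCs (log2FC 6.94 ± 0.71, SE), *Etv4* rose by 4.18 on the log2 scale, and *Spry4* was listed only for CPCCs (at least 58.3-fold higher). *Etv5*, also known as an ERK target, was lower (-1.51). *Socs3*, the feedback target of LIF and STAT3, fell by 1.12 and the LIF receptor *Lifr* by 0.77, while *Stat3* itself (0.72), *Jak1* (0.80) and the shared receptor chain *Il6st* (0.97) were higher in CPCCs. *Axin2*, which WNT signalling and GSK3 inhibition induce, was lower (-1.30), as was *Tcf7l1* (-1.16). *Gsk3b* was higher (1.46), as were *Fgfr2* (2.45) and *Fgfr1* (0.61). *Fgf4*, an OCT4 and SOX2 target in mESCs, fell by 4.72.

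**Figure D5:**
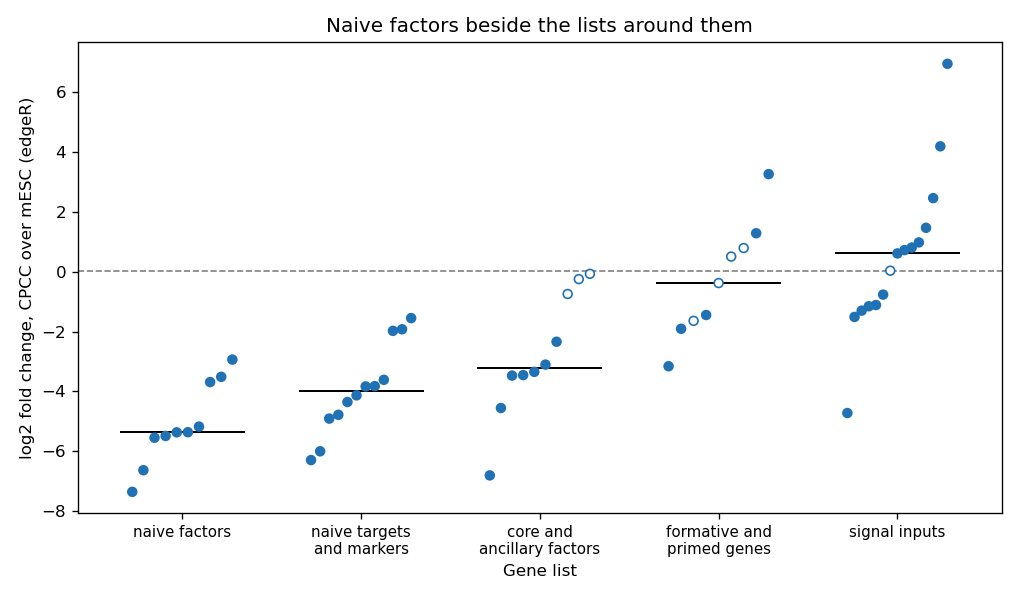
The log2 fold change (CPCC over mESC, edgeR) of each tested gene in 5 lists; filled points passed an adjusted p of 0.05, black bars are list medians and the dashed line is the median of all genes tested at 0.03. The naive factors lie lowest (median -5.36), ahead of the naive targets and markers (-3.98) and the core and ancillary factors (-3.23). Formative and signal genes lie on both sides of 0.

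The genes whose pattern over the 6 libraries was most like that of the members were found by the root mean square difference in log2 CPM, after centring each gene, from the median profile of the 10 members. They were *Morc1* (0.17), *Mylpf* (0.18), *Pramef12* (0.21), *Smtnl2* (0.21) and *Elf3* (0.22). *Morc1* had 122, 127 and 125.2 CPM in mESCs, as opposed to 1.29, 4.24 and 6.07 CPM in CPCCs. *Mylpf*, a myosin light chain gene of fast skeletal muscle, had 284, 279 and 232 CPM in mESCs, as opposed to 2.78, 7.40 and 8.60 CPM in CPCCs. Among the members themselves *Esrrb* (0.10) and *Nr0b1* (0.13) lay nearest to the median profile, to which they contribute, and *Klf4* (1.497), *Tfcp2l1* (1.09) and *Klf2* (1.05) farthest.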

How the data were processed

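Total RNA of 3 mESC and 3 CPCC cultures was made into polyA cDNA libraries and sequenced by the authors. They deposited 1 table per cell type holding estimated counts for each gene that were not scaled. The submitters' processing notes name STAR 2.7 and mm10, and the counter and its use of strand are not given in the sources used here. Each table leaves out genes with fewer than 10 counts over its 3 libraries. Columns were assigned to a cell type by their table, and no column could be matched to a replicate or clone. P-values judge the difference between the cell types against the spread among the libraries of each, without pairing by clone.

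Counts were rounded and compared over the 13001 genes in both tables by edgeR 4.0.16 (R 4.3.3; filterByExpr, TMM, quasi-likelihood test, Benjamini-Hochberg adjustment), which left 12471 genes. The standard error is the log2 fold change over the square root of F. CPM were computed from unrounded counts. Folds for genes in 1 table are bounds against 3 counts per library. Bounds and floors cover counting error only. The scripts were tested on simulated counts. DESeq2 1.42.0 and other settings were alternatives. The members and lists were chosen with earlier results of these data known. All members were named, and of each list some of the genes with the largest change in each direction. Other genes named were chosen after their values were seen, for their role. Figures were drawn with matplotlib 3.10.9.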

Additional observations from a re-analysis of the deposited data

How the results depend on the processing

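All 10 members stayed lower in CPCCs in every fit that tested them, over 8 other settings and 6 fits that each left out 1 library. The exception was *Prdm14*, which was removed by a filter of 10 or more counts in each library. The largest adjusted p of a member was 0.000711, for *Nanog* without S05. The median log2FC of the members lay between -5.78 and -5.01. That of all genes tested lay between 0.01 and 0.17, the highest being the fit with genes missing from 1 table set to 0. The filter of 10 or more counts, which leaves fewer genes to test, gave 4 core and ancillary factors lower, 2 other KLF genes higher and 3 relatives of other members higher. For those relatives the count higher lay between 2 (without S01) and 5 when 1 library was left out, with 3 without S05. The cause was not tested. No paired analysis was possible because the columns carry no replicate numbers. Depth limits *Prdm14* and *Tbx3* most, with 0 to 24 counts in a CPCC library.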
